A study of Mus musculus with 8 samples.

Results

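The genes described are the Eph receptors, their ephrin ligands, the Slit ligands, the Robo receptors and the srGAP proteins that act inside the cell beneath Robo. They were taken by symbol from a fixed list of 32 genes, and all 32 were found among the 55421 genes of the deposited table. Their RNA was measured by RNA-seq in E9.5 mouse embryos, in the vagal region, which spans somites 1 to 7. In 4 libraries the embryos were homozygous for the trex mutant allele of Rdh10 (Rdh10 trex/trex, called trex here), the enzyme that oxidises retinol on the way to retinoic acid. The other 4 libraries came from wild type embryos (wt), and neither group received a treatment. The labels do not state whether a library is 1 embryo or a pool, so the p-values rest on a spread between libraries that may be technical.

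Eph receptors are tyrosine kinases that bind ephrins on neighbouring cells, and contact usually makes the cells pull apart. Ephrin-A ligands are held to the membrane by a lipid anchor, whereas ephrin-B ligands cross it and can signal back into their own cell. In the early embryo the system keeps hindbrain segments apart, steers neural crest streams past the somites and separates arteries from veins. Slit proteins are secreted, for instance by the floor plate, and repel axons and crest cells that carry Robo receptors. In chick embryos Robo-bearing trunk crest cells are repelled by Slit2 at the gut, while vagal crest cells, which colonise the gut, are not.

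Between the genotypes 9 of the 29 guidance genes that could be tested differed, 6 higher and 3 lower in trex. Epha7, Ephb3, Efna3, Efna5, Slit3 and Robo2 rose, and Ephb2, Robo3 and Srgap3 fell. These 9 make up 31.0% of the tested members, beside 8.71% of all 15717 tested genes that were called in either direction, 4.94% as higher and 3.77% as lower. The members were chosen with earlier results of these data known, so the contrast of these shares describes this list and is no test. With wt replicate 1, 2 or 3 left out, 1 of the 9 calls held, and the genes called among all fell to as few as 201 (without wt replicate 2). A gene was tested when its mean over the 8 libraries was at least 1 TPM (TPM is a transcript level scaled for gene length and library total). Robo3 reached this limit through its wt level alone. It was called when the adjusted p of limma on log2(TPM + 1), with Benjamini-Hochberg adjustment over all tested genes, was below 0.05. Adjusted p below means this test, except where an alternative is given.

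The rises were small except that of Efna3, at 3.57-fold, and the other folds between group mean TPM ran from 1.17 to 1.57 upward. The median log2 difference of the tested members was 0.16, beside 0.04 over all tested genes, and 21 of the 29 had a difference above 0. In 15 of 29 members (51.7%) the 4 trex values and the 4 wt values did not overlap, which was also so in 21.8% of all tested genes. An exact two-sided permutation test of the mean TPM gave p = 0.0286 for each of these 15, the smallest that 4 against 4 allows.

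**Figure D1:**
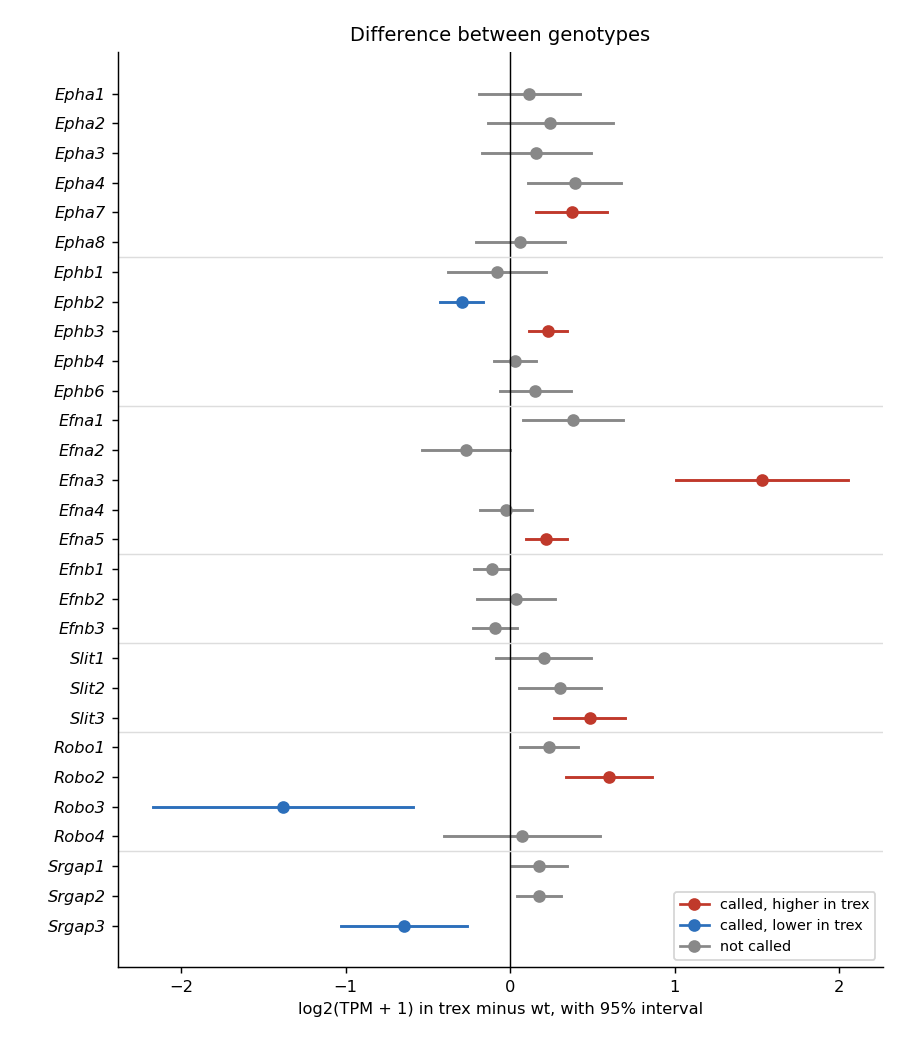
Difference in log2(TPM + 1), trex minus wt, for the 29 tested guidance genes in order of role, with points for the estimate and lines for the 95% interval. Red points are the 6 genes called as higher in trex, blue points the 3 called as lower, and Efna3 lies farthest right at 1.53.

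Some facts of the libraries bear on every value. Recovered depth ran from 20928981 to 23648646 reads per library. The Rdh10 transcript ranged from 62.7 to 106 TPM in trex and from 36.3 to 41.0 TPM in wt, and the labels do not say how the allele acts on it, so it checks no label. Y-linked transcripts were found in wt replicate 2 (a sum of 162 TPM) and wt replicate 3 (158 TPM), while no other library exceeded 0.0662 TPM. With sex read from them as a covariate, none of the 9 members was called (39 of all tested genes were, and 11 members had an unadjusted p below 0.05), while the direction of all 9 was unchanged. Liver bud markers summed to between 8.73 and 32.8 TPM in replicates 1 and 2 of both groups and to between 183 and 500.0 TPM in replicates 3 and 4. The 9 called members differed in the same direction within replicates 1 and 2 and within replicates 3 and 4. The 18 markers of differentiating neurons summed to between 244 and 427 TPM in trex and between 682 and 1079 TPM in wt, with 14 of the 18 called as lower. Caudal Hox genes summed to between 501 and 646 TPM in trex and between 94.8 and 248 TPM in wt. Of 11 tested, 6 were called as higher. Cardiomyocyte markers ran from 232 to 2645 TPM in trex and from 323 to 2696 TPM in wt, with none called. The part of these differences in the guidance genes was not tested. In bulk tissue, fewer cells of a type and less RNA per cell cannot be told apart.

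The promoters of 5 members are shown first because the clearest difference of the group lies in a cluster of 3 neighbouring ephrin-A genes, and because Ephb2 and Ephb3 moved in opposite directions. Efna1, Efna3 and Efna4 lie side by side on chromosome 3, with 32.8 kb between Efna1 and Efna3 and 10.4 kb between Efna3 and Efna4. Each line gives the bases before a RefSeq start (build GRCm38.p6), 5′ to 3′ on the strand of the gene, without bases that GENCODE M21 places in an exon. Capitals mark the core ACGTG or GCGTG, which hypoxia-inducible factors bind, on either strand (CACGT and CACGC are the same letters read from the other strand).
Efna1, chr3:89279646-89279895, minus strand: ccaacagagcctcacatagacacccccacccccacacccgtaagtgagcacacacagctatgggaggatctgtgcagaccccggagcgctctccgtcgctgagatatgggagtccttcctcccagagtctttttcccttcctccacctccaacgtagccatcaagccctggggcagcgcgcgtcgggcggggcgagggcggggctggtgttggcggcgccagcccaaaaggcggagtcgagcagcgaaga
Efna3, chr3:89322966-89323189, minus strand: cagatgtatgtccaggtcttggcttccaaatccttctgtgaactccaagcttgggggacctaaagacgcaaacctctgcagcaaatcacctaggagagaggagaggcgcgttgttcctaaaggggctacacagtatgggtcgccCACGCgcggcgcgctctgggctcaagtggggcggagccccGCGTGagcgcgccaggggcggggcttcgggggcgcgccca
Efna4, chr3:89338029-89338278, minus strand: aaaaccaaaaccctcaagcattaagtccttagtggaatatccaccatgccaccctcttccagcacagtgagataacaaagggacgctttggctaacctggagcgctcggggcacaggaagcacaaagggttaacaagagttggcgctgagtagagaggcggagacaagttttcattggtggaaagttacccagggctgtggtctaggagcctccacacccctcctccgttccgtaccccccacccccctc
Ephb2, chr4:136836013-136836262, minus strand: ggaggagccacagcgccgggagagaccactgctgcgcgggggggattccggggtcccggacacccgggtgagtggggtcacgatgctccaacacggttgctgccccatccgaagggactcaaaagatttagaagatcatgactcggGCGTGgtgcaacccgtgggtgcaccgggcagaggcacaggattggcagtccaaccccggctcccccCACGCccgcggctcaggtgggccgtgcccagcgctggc
Ephb3, chr16:21204545-21204754, plus strand: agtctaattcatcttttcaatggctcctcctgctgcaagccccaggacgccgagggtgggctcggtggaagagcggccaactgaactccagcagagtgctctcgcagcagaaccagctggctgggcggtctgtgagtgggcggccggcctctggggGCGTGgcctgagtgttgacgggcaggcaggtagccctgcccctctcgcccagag

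The Efna3 promoter held 2 matches, whose first bases lay 106 and 66 bases before the start, and a second Efna3 start, not shown, held 3 in its 250 bases. No match lay in the 250 bases before the start of Efna4 or before either Efna1 start. Both Efna1 starts lie within the gene as annotated, and the one farther inside it is shown. With the 50 bases after the start included, Efna1 also held the core. Ephb2, which fell, held 2, at 104 and 38 bases before its start, and Ephb3, which rose, also held 2, at 94 and 5 bases, the last of them in a stretch left out above. Over 250 bases before any start of a gene, 13 of the 30 members with a promoter in the table held the core, or 43.3%, beside 41.5% of 27025 genes. Among the 9 called members 6 held it (4 of those higher and 2 of those lower), and among 18 matched members that were not called 7 held it. In Epha8 and Robo2 some matches were part of CACGTG, the E-box of other factors, where both strands match, and in Robo2 they lay before the start farthest from the gene only. Retinoic acid response elements were searched on both strands as direct repeats with 1, 2 or 5 bases between the units. A unit could be the common form AGGTCA, the variant form AGTTCA, the variant form GGGTCA or the variant form GGTTCA. None of the 30 members held one in this window, and 53, 55 and 28 of 27025 genes did at the 3 spacings. A match is a run of letters, not a bound site.

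Among the ephrin-A ligands, Efna3 and Efna5 rose and 3 were not called. Efna3 (ENSMUSG00000028039, chromosome 3, 89313899 to 89322965, mm10) held 14.5, 6.78, 9.91 and 11.1 TPM in trex replicates 1 to 4. In wt replicates 1 to 4 it held 2.34, 3.04, 4.22 and 2.26 TPM. All 4 trex libraries were above all wt libraries, with replicate 2 the lowest of them. The means were 10.6 ± 3.20 TPM in trex and 2.97 ± 0.907 in wt (SD, n = 4 each), with a log2 difference of 1.53 ± 0.23 (SE) and an adjusted p of 0.0102. Efna3 was the single member whose call held whichever 1 of the 8 libraries was left out (adjusted p from 0.0036 to 0.0433). With a pseudocount of 5 the log2 difference was 0.95 (adjusted p = 0.0110). Efna3 rested on 31 to 204 reads per library, and the adjusted p with the sex covariate was 0.0508.

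Genes of the low oxygen response, including Ldha and Ddit4, also differed strongly, and 10 of 15 of them were called as higher. Their summed level was 11504, 4935, 7003 and 8889 TPM in trex replicates 1 to 4 and between 3427 and 3680 TPM in wt. The trex libraries thus fell in the same order for this sum and for Efna3, with replicate 1 highest, then 4, 3 and 2. The wt libraries did not, since wt replicate 4 was highest for the sum (3680 TPM) and lowest for Efna3 (2.26 TPM). The order in trex was not particular to low oxygen genes. In trex replicates 1, 4, 3 and 2 surface ectoderm markers summed to 887, 718, 581 and 389 TPM. Endothelial markers summed to 686, 652, 590 and 564 TPM in the same libraries. Efna1, a ligand also found on vessels, held 51.3, 34.0, 42.5 and 53.4 TPM in trex and 33.9, 35.6, 30.9 and 36.3 TPM in wt. Trex replicate 2 lay within the wt range, and Efna1 was not called (log2 difference 0.38 ± 0.13, adjusted p = 0.109). Without trex replicate 2 it was called as higher (adjusted p = 0.0128), in a run where 2911 of all genes were called, beside 1369 with all libraries. Without any 1 of the other 7 libraries it was not called (adjusted p from 0.153 to 0.231). The part of the low oxygen response in these levels was not tested.

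Efna4, the third gene of the cluster, averaged 82.3 ± 6.98 TPM in trex and 83.7 ± 4.03 in wt, with a 95% interval of the log2 difference from -0.18 to 0.13. Of the 24 tested genes within 100 kb of the cluster, Efna3 had the largest difference, and Thbs3 (0.69), Shc1 (0.45) and Adam15 (0.35) were the others called. Efna5, a ligand known from the map of retinal axons (ENSMUSG00000048915, chromosome 17, 62604184 to 62881317), held 66.5, 59.0, 59.7 and 58.6 TPM in trex. In wt it held 54.6, 51.4, 52.0 and 50.7 TPM, so the groups did not overlap but lay close. Its means of 60.9 ± 3.74 and 52.2 ± 1.71 TPM differed by 0.22 ± 0.05 on the log2 scale (adjusted p = 0.0441). The call ended without trex replicate 3 or 4 or any 1 wt replicate (adjusted p from 0.0735 to 0.134). Efna2, the other ligand prominent in that map, held 56.9, 88.1, 75.6 and 73.5 TPM in trex and between 83.0 and 94.3 TPM in wt, with no call (log2 difference -0.27, adjusted p = 0.174). Without trex replicate 2, in the same run with 2911 genes called, it was called as lower (adjusted p = 0.0481). Without any 1 of the other 7 libraries it was not (adjusted p from 0.222 to 0.313).

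**Figure D2:**
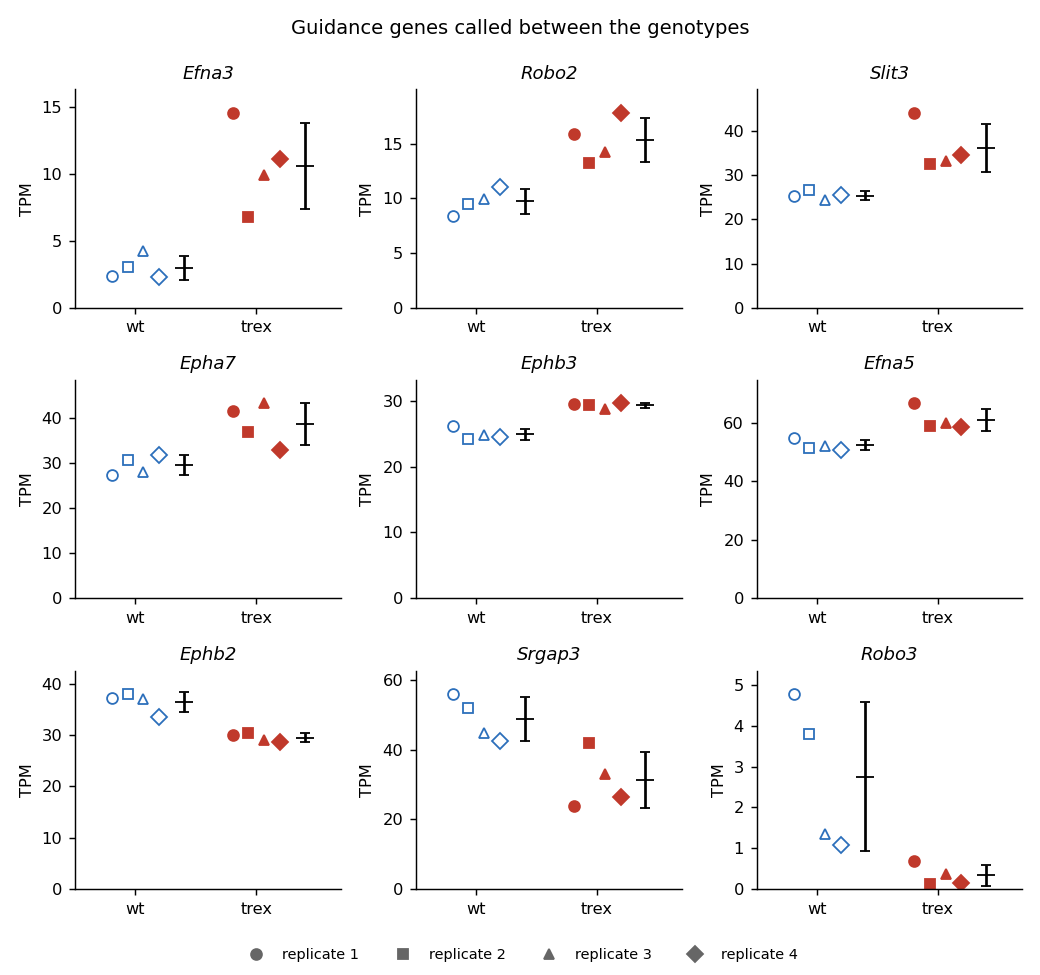
TPM (linear axes from 0) of the 9 called guidance genes in each wt and trex library, with marker shapes for the replicate number and bars for the mean ± SD of 4. In each panel the groups do not overlap, and the spread of Robo3 in wt runs from 1.08 to 4.78 TPM.

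No ephrin-B ligand was called, and these were among the most abundant members. Efnb3, a ligand of the neural midline, averaged 131 ± 6.87 TPM (trex) and 140 ± 8.49 TPM (wt). Efnb2, which marks arteries and is also made by hindbrain and somites, stood at 89.9 ± 15.7 and 86.7 ± 2.03 TPM, with 113 TPM in trex replicate 1 and 84.7 TPM in replicate 2. Efnb1, which is carried by the X chromosome and needed in neural crest, stood at 76.2 ± 3.02 and 82.5 ± 3.25 TPM. Its groups did not overlap, but the adjusted p was 0.158. The intervals of the log2 difference reached at most 0.27 upward and -0.23 downward over the 3 genes.

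The EphB receptors held a rise and a fall of like size. Ephb2, an ephrin-B receptor of neural tube and axons (ENSMUSG00000028664, chromosome 4, 136647539 to 136835988), held 30.0, 30.3, 29.0 and 28.6 TPM in trex. In wt it held 37.3, 38.0, 37.0 and 33.5 TPM, each above every trex library. The means were 29.5 ± 0.817 and 36.4 ± 1.99 TPM, a log2 difference of -0.30 ± 0.06 with an adjusted p of 0.0205. Its call ended without trex replicate 3 or 4 or wt replicate 1, 2 or 3 (adjusted p from 0.0559 to 0.0846). The 18 markers of neural tube progenitors summed to between 862 and 1070 TPM in trex and between 1252 and 1584 TPM in wt, with 7 called as lower, and their part in the level of Ephb2 was not tested.

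Ephb3, which shares ephrin-B ligands and many tasks with Ephb2 (ENSMUSG00000005958, chromosome 16, 21204755 to 21223305), went the other way. It held 29.5, 29.3, 28.8 and 29.6 TPM in trex and 26.1, 24.2, 24.7 and 24.4 TPM in wt. The trex libraries lay close together and all above wt. Its means of 29.3 ± 0.365 and 24.9 ± 0.840 TPM differed by 0.23 ± 0.05 on the log2 scale (adjusted p = 0.0314). Leaving out trex replicate 3 or 4 or any 1 wt replicate ended the call (adjusted p from 0.0551 to 0.114), as did median-of-ratios rescaling (0.0501) and quantile normalization (0.0622). As shares of the summed EphB level, Ephb2 made up 17.3% in wt and 13.9% in trex, and Ephb3 made up 11.8% and 13.8%.

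The other EphB receptors were not called. Ephb4, the receptor that marks veins, was the most abundant Eph receptor per length at 130.4 ± 7.41 TPM in trex and 128 ± 6.43 in wt, with an interval of the log2 difference from -0.10 to 0.16. Of 12 endothelial markers 2 (Cdh5 and Tek) were called as higher, and their sum ran from 564 to 686 TPM in trex and from 500.2 to 545 TPM in wt. Ephb6, which lacks kinase activity, stood at 17.6 ± 1.96 and 15.7 ± 1.11 TPM. Ephb1 stood at 5.53 ± 0.839 and 5.88 ± 0.707 TPM, with overlapping groups in both genes.

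Among the EphA receptors Epha7 rose, and none of the other 5 tested was called. Epha7 (ENSMUSG00000028289, chromosome 4, 28813131 to 28967499), a receptor of hindbrain and neural tube, held 41.6, 37.0, 43.3 and 32.9 TPM in trex. In wt it held 27.3, 30.8, 28.1 and 31.9 TPM, so trex replicate 4 and wt replicate 4 were only about 1 TPM apart. The means of 38.7 ± 4.70 and 29.5 ± 2.19 TPM differed by 0.37 ± 0.09 on the log2 scale (adjusted p = 0.0450). Without trex replicate 1 or 3 or any 1 wt replicate it was not called (adjusted p from 0.0665 to 0.120), nor after median-of-ratios rescaling (0.0571) or quantile normalization (0.0648).

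Epha4, which binds ephrins of both classes and marks alternate hindbrain segments, was the most abundant EphA receptor in both groups. It held 59.6, 38.9, 44.1 and 40.5 TPM in trex and at most 36.6 TPM in wt. The groups did not overlap, trex replicate 1 stood apart, and the adjusted p was 0.0850 (log2 difference 0.39 ± 0.12). It was called as higher without trex replicate 1 (adjusted p = 0.0415) or trex replicate 2 (0.0414). In these runs 1655 and 2911 of all genes were called, beside 1369 with all libraries. Without any 1 of the other 6 libraries Epha4 was not called (adjusted p from 0.113 to 0.189).

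Epha3, Epha1 and Epha2 averaged 14.1 ± 2.41, 11.2 ± 2.27 and 11.2 ± 3.24 TPM in trex and 12.5 ± 1.97, 10.1 ± 0.932 and 9.05 ± 0.146 TPM in wt, with overlapping groups. Epha8 stood near 3 TPM, at 3.08 ± 0.400 and 2.89 ± 0.139. Epha5, Epha6 and Epha10 were below the limit for testing, at no more than 0.540, 0.0696 and 0.460 TPM in any library. They had at most 52, 2 and 18 reads, and where no filter was applied none of them was called (adjusted p = 0.592, 0.353 and 0.600). The summed EphA level ran from 112 to 146 TPM in trex and from 94.9 to 103 TPM in wt, without overlap. The summed EphB and ephrin ligand levels overlapped between the genotypes.

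**Figure D3:**
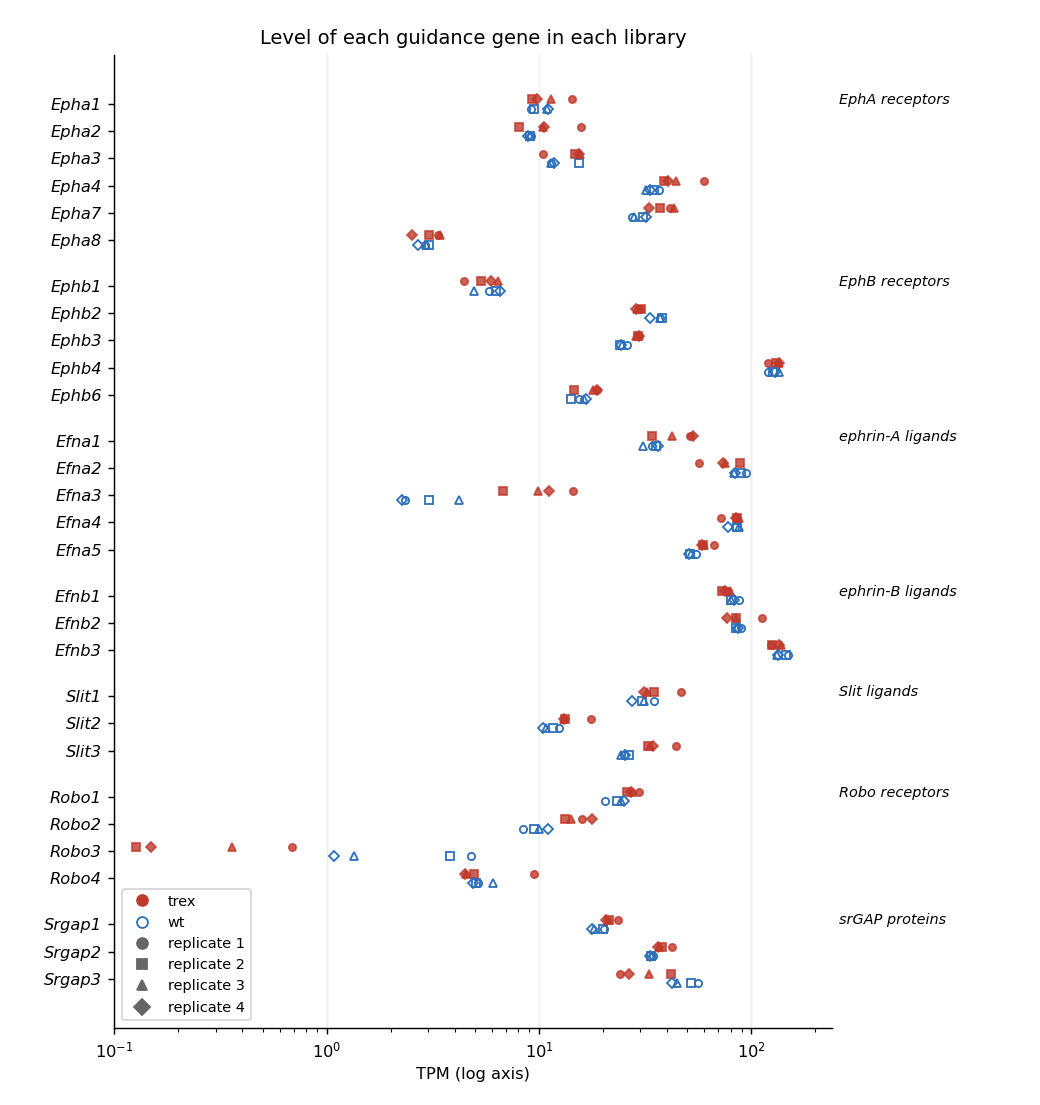
TPM of the 29 tested guidance genes in each library on a log axis, in order of role, with filled red marks for trex, open blue marks for wt and shapes for the replicate number. Levels span from 0.127 TPM (Robo3 in trex replicate 2) to 148 TPM (Efnb3 in wt replicate 1), and Efna3 and Robo3 show the widest separation.

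Of the Slit ligands Slit3 rose, and Slit1 and Slit2 were not called. Slit3 (ENSMUSG00000056427, chromosome 11, 35121224 to 35708507), a Slit made in mesoderm as well as the floor plate, held 44.1, 32.6, 33.3 and 34.6 TPM in trex. In wt it held 25.2, 26.6, 24.3 and 25.5 TPM, all below trex. The means of 36.1 ± 5.37 and 25.4 ± 0.944 TPM differed 1.42-fold, or by 0.48 ± 0.10 on the log2 scale (adjusted p = 0.0223). Although trex replicate 1 stood apart, the adjusted p was lower without it (0.00612, log2 difference 0.39). The call ended without trex replicate 4 or any 1 wt replicate (adjusted p from 0.0559 to 0.0709).

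Slit2, the ligand named above for its action on crest cells at the gut, held 17.6, 13.2, 13.1 and 13.1 TPM in trex and 12.4, 11.6, 10.8 and 10.5 TPM in wt. Its groups did not overlap, but the adjusted p was 0.117 (log2 difference 0.30 ± 0.11). Slit1, a Slit of the nervous system, held 46.5, 34.7, 32.3 and 31.3 TPM in trex and between 27.4 and 34.8 TPM in wt, with overlap. Trex replicate 1 was the highest of the 8 libraries for each of the 3 Slit genes. The summed Slit level was 108, 80.5, 78.7 and 78.9 TPM in trex and between 63.3 and 72.3 TPM in wt. Floor plate and roof plate markers, where Slits are made, summed to between 225 and 246 TPM in trex and between 199 and 234 TPM in wt, and none of 8 was called.

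The Robo receptors split between a rise of Robo2 and a fall of Robo3. Robo2, a Slit receptor of axons and mesenchyme (ENSMUSG00000052516, chromosome 16, 73891839 to 74411825), held 15.9, 13.3, 14.2 and 17.8 TPM in trex. In wt it held 8.38, 9.51, 9.95 and 11.1 TPM, each below the lowest trex library. The means of 15.3 ± 2.01 and 9.73 ± 1.11 TPM differed 1.57-fold, or by 0.60 ± 0.11 on the log2 scale (adjusted p = 0.0203). Its call ended when trex replicate 4 or wt replicate 1, 2 or 3 was left out (adjusted p from 0.0541 to 0.0766). Robo2 made up 31.2% of the summed Robo level in trex and 23.6% in wt.

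Robo1, which lies 846 kb from Robo2 and binds the same ligands, held 29.5, 25.9, 27.6 and 27.1 TPM in trex and 20.4, 23.3, 24.2 and 25.1 TPM in wt. The groups did not overlap, yet Robo1 was not called (log2 difference 0.23 ± 0.08, adjusted p = 0.0917). Neural crest markers summed to between 686 and 839 TPM in trex and between 608 and 624 TPM in wt, with 2 of 12 called as higher (Snai2 and Twist1) and 1 as lower (Ednrb). For somite markers the sums ran from 584 to 820 TPM and from 521 to 608 TPM, with 3 of 12 called as higher. What these cell types contribute to the levels of Robo1, Robo2 and Slit3 was not tested.

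Robo3, which lets commissural axons approach the midline before they cross (ENSMUSG00000032128, chromosome 9, 37415669 to 37433246), was scarce in trex. It held 0.684, 0.127, 0.358 and 0.149 TPM in trex, from 27, 5, 13 and 6 reads. In wt it held 4.78, 3.81, 1.35 and 1.08 TPM, from 178, 148, 54 and 43 reads. Replicates 1 and 2 of wt were thus far above replicates 3 and 4, and all 4 exceeded trex. The means of 0.329 ± 0.258 and 2.76 ± 1.83 TPM differed 8.37-fold, and the log2(TPM + 1) difference, which understates a change at such levels, was -1.38 ± 0.35 (adjusted p = 0.0447). With 1 library left out the fold ran from 6.32 (without wt replicate 1) to 13.04 (without trex replicate 1, where the trex mean was 0.211 TPM). The log2 difference was -2.66 with a pseudocount of 0.1, -3.08 with voom on recovered reads and -0.51 with a pseudocount of 5 (not called, adjusted p = 0.0709). Robo3 passed the limit for testing through its wt level alone. The call ended without trex replicate 2, 3 or 4 or wt replicate 1, 2 or 3 (adjusted p from 0.0543 to 0.134).

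Neuron markers summed to 1079, 1048, 731 and 682 TPM in wt replicates 1 to 4, the same order as Robo3 in wt. The sums of neural tube progenitor, floor plate and roof plate, and hindbrain segment markers fell in this wt order too. In trex they summed to 244, 427, 420.1 and 348 TPM, with replicate 1 lowest for the markers and highest for Robo3. The part of neuron number in the level of Robo3 was not tested. Robo3 ends 0.553 kb from the end of Robo4, which lies on the other strand. Robo4, a receptor of endothelial cells, held 9.45, 4.92, 4.55 and 4.50 TPM in trex against 4.87 to 6.04 TPM in wt (adjusted p = 0.840, not called). Endothelial markers were also highest in trex replicate 1. They were next highest in trex replicate 4 (652 TPM), which held the lowest Robo4 level of the 8 libraries.

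Of the srGAP proteins, which bind the tail of Robo inside the cell, Srgap3 fell. Srgap3 (ENSMUSG00000030257, chromosome 6, 112717971 to 112947266) held 24.0, 42.0, 33.1 and 26.5 TPM in trex and 56.0, 52.0, 44.9 and 42.4 TPM in wt. The highest trex library, replicate 2, lay only just under the lowest wt library. The means of 31.4 ± 8.08 and 48.9 ± 6.29 TPM differed by -0.65 ± 0.17 on the log2 scale (adjusted p = 0.0489). Only leaving out trex replicate 2 kept the call (0.00984), and without any 1 of the other 7 libraries the adjusted p was 0.0700 to 0.140. Within each genotype the libraries fell in the same order for Srgap3 and for the sum of neuron markers. In wt, but not in trex, the sum of neural tube progenitor markers fell in the order of Srgap3 too. The part of neuron number in the level of Srgap3 was not tested.

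Srgap1 and Srgap2 lay on the other side. Srgap1 held 23.7, 21.3, 21.2 and 20.7 TPM in trex and 20.3, 20.1, 18.2 and 17.8 TPM in wt (adjusted p = 0.148). Srgap2 held 42.3, 38.0, 36.7 and 36.5 TPM in trex and between 33.4 and 34.3 TPM in wt (adjusted p = 0.0947). Neither was called, though in both the groups did not overlap. Of the summed srGAP level Srgap3 made up 47.9% in wt and 34.0% in trex, and Srgap2 made up 33.4% and 42.1%.

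**Figure D4:**
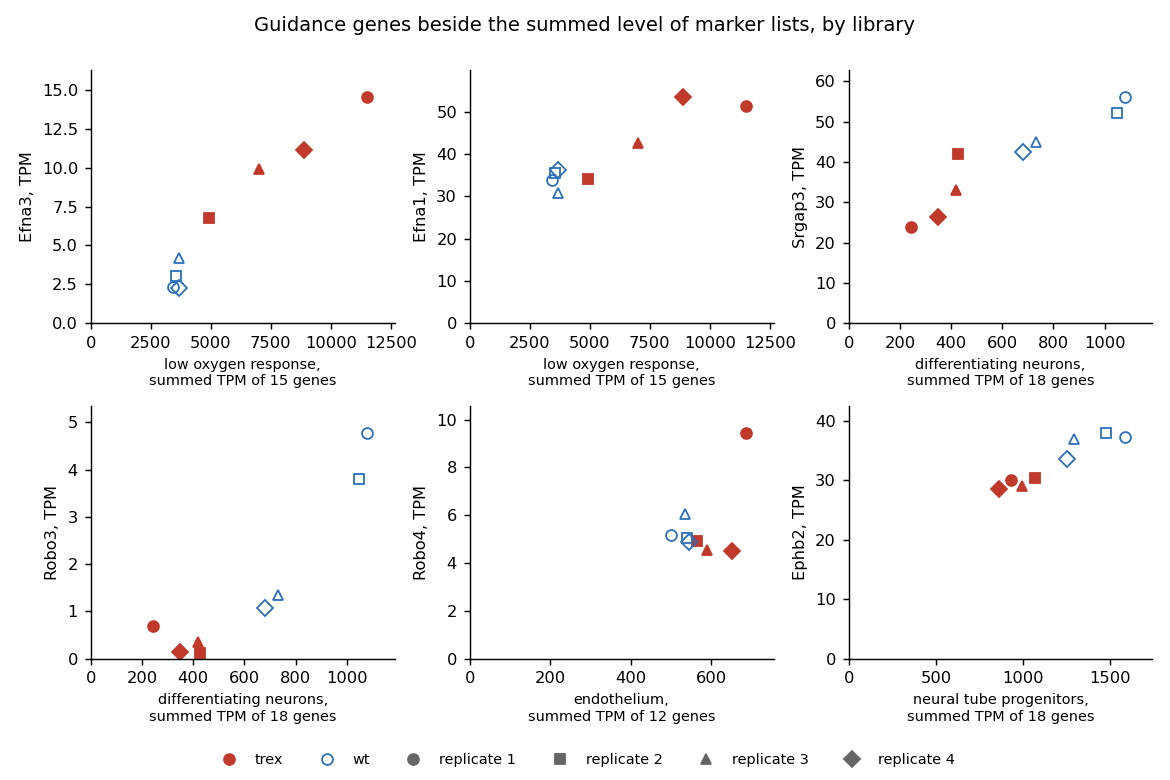
Level of 6 guidance genes (TPM, vertical axes) against the summed TPM of a marker list (horizontal axes) in each of the 8 libraries, as a description without a test. Efna3 and Efna1 are beside 15 low oxygen genes, Srgap3 and Robo3 beside 18 neuron genes, Robo4 beside 12 endothelial genes and Ephb2 beside 18 neural tube progenitor genes.

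Genes that work with these receptors were counted in the same way. Of 64 partners in 2 lists 62 were tested, and 4 (6.45%) were called, beside the 8.71% of all tested genes. Among 34 tested partners of Eph and ephrin signalling 1 rose and 1 fell, and the median log2 difference was -0.00077. Tiam1, an exchange factor that activates Rac beneath Eph receptors, rose from 26.0 ± 1.39 to 34.2 ± 4.47 TPM (adjusted p = 0.0404, and up to 0.124 with a library left out). Pak1, a kinase that Rac and Cdc42 switch on, fell from 81.2 ± 11.4 to 58.3 ± 1.78 TPM (adjusted p = 0.0233, and up to 0.0848). Among 28 tested partners of Slit and Robo 2 rose and none fell, with a median of 0.02. Flrt3, a membrane protein that binds Robo1, rose from 59.8 ± 8.16 to 103 ± 19.2 TPM (adjusted p = 0.0149), with 132 TPM in trex replicate 1 and 91.7 to 95.1 TPM in the other trex libraries. Cables1, an adaptor that links Robo to Abl and cadherin, rose from 14.0 ± 0.861 to 24.0 ± 6.84 TPM (adjusted p = 0.0489). Cables1 kept its call in 1 of the 8 runs that left out a library, Tiam1 in 2, Pak1 in 4 and Flrt3 in 7.

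**Figure D5:**
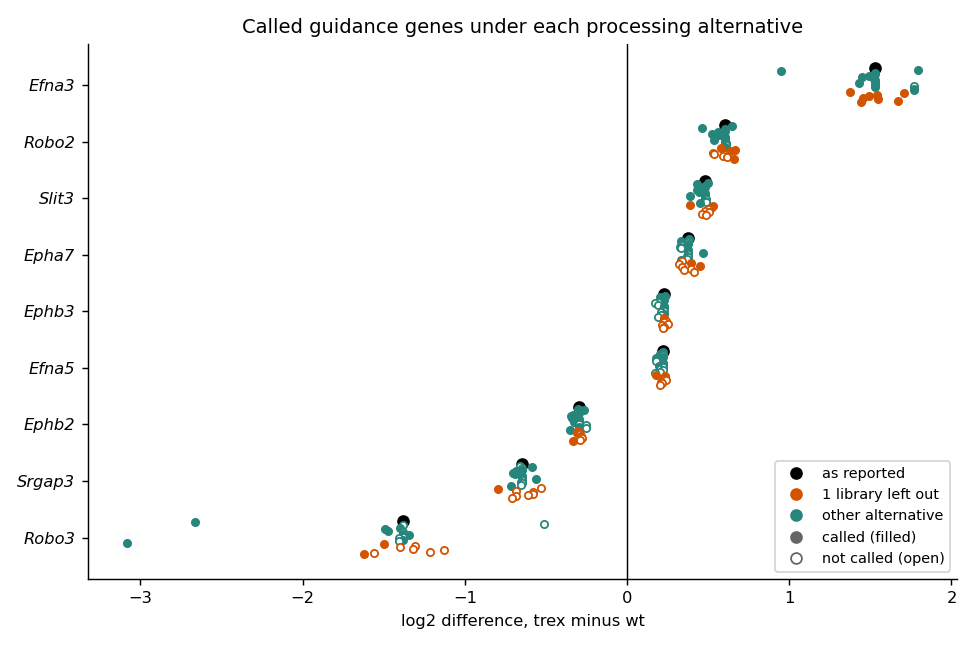
Log2 difference, trex minus wt, of the 9 called guidance genes as reported (black), with 1 library left out (orange) and under the other alternatives (green). Filled points are called and open points are not, and no point lies on the other side of 0 from its gene's black point.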

How the data were processed

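RNA-seq of 8 libraries was used, 4 trex and 4 wt. The values are TPM as deposited, 1 column per sample. The submitters' processing notes name CASAVA 1.8.2, STAR and mm10. Counter, strand setting and annotation: not given in the sources used here. Symbols matched 55154 of 55421 identifiers, and positions and exonic lengths came from GENCODE M21 (same assembly). Multiplied by exonic length, at least 98.7% of low values (up to 200 reads) were whole multiples of 1 step within 0.001 read, which gave the reads behind each value.

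Levels were tested with limma 3.58.1 in R 4.3.3 (moderated by eBayes along an intensity trend) applied to log2(TPM + 1) with genotype as the only term, two-sided, 0.05 after Benjamini-Hochberg adjustment over genes with a mean TPM of at least 1. The step was checked on simulated data with independent noise in each gene. These data hold no differences between whole libraries, so the check does not cover such differences. Folds are ratios of mean TPM. Every member is reported, and uncalled members with a mean of at least 10 TPM are named with values. The members, lists and tests were chosen with earlier results of these data known. Replicate numbers are those of the labels' replicate field, which starts at 1 in each genotype, whereas the sample titles number the wt libraries on from the trex ones.

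Alternatives were pseudocounts of 0.1 and 5, no filter and one at 5 TPM, 3 other scalings, other variance models, array weights, a replicate block, sex, voom on recovered reads and leaving out each library. A liver marker term (summed TPM above 100) was added after seeing the data.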

Additional observations from a re-analysis of the deposited data

Results flagged for a closer look

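By Dixon's criterion 1 library lay far from the other 3 of its genotype in 6 of 58 cases (29 genes in each genotype), where chance gives about 1 in 20, and 5 of the 6 were trex replicate 1. It held 66.5 TPM of Efna5 (the other trex libraries 58.6 to 59.7), 17.6 TPM of Slit2 (13.1 to 13.2), 44.1 TPM of Slit3 (32.6 to 34.6), 9.45 TPM of Robo4 (4.50 to 4.92) and 10.5 TPM of Epha3 (14.9 to 15.6). In wt, replicate 2 held 15.4 TPM of Epha3, where the others held 11.3 to 11.7 TPM. The 58 cases share the same 8 libraries, so they are not independent of each other. Trex replicate 1 also differed in marker sums. Its primitive erythroid markers summed to 3090 TPM, beside 9421 to 15957 TPM in the other trex libraries.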

How the results depend on the processing

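The direction of the 9 called members held in all 23 alternatives that could test them, but their calls often did not. Among 206 results of these members under an alternative 115 stayed called and 91 were not, and among 458 of the other tested members 12 became called. Higher and lower members called were 3 and 3 without globin, mitochondrial and sex chromosome genes, 13 and 4 with array weights, 4 and 1 without a filter, 4 and 1 with eBayes without a trend, and 4 and 2 with the liver term. Efna5 and Epha7 were each lost with the liver term, without a filter and with eBayes without a trend, Srgap3 in those 3 and with a pseudocount of 0.1, Robo3 with a pseudocount of 5, without a filter and without a trend, and Efna5 and Ephb3 with voom. With the sex covariate, and in the 6 libraries low in Y-linked transcripts (4 trex and 2 wt), they were 0 and 0 in limma, where 11 and 10 members had an unadjusted p below 0.05. With 1 library left out they ran from 1 to 8 higher and from 0 to 3 lower.

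All genes called were 1369 as reported, 694 without a filter, 5524 with array weights, 39 with the sex covariate, 8 in the 6 libraries, and 201 (without wt replicate 2) to 2911 (without trex replicate 2) with 1 library left out. Of the called genes 56.8% were higher in trex, beside 46.1% after quantile normalization, 48.3% without globin, mitochondrial and sex chromosome genes and 43.9% with voom, while the called members were 4 higher and 3 lower after quantile normalization and with voom.

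With the replicate block 687 genes were called, 3 members as higher (Efna3, Slit3 and Robo2) and 0 as lower. Same-numbered samples had deviations with correlations of 0.16, -0.02, -0.00 and 0.25. Trex replicates 1 and 2 were most like wt replicate 1, and trex replicates 3 and 4 most like wt replicate 4. Thus 2 of 4 trex samples were most like the wt sample of their number. Liver bud markers also set replicates 1 and 2 apart from 3 and 4, and the liver term follows that split. The number, which the sample titles do not share between genotypes, was not used as a pairing in the main test. The promoter counts were 14 in place of 13 members for the hypoxia core over the whole entry, which adds 50 bases after the start. The member added was Efna1.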

Other observations

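Within replicates 1 and 2, which were low in liver markers, the log2 difference was 1.58 for Efna3, 0.65 for Robo2, 0.53 for Slit3 and -1.94 for Robo3. Within replicates 3 and 4, which were high in them, it was 1.48, 0.56, 0.43 and -0.82. With 2 libraries a group these are values without a test. Surface ectoderm markers, which are not among the roles above, summed to 887, 389, 581 and 718 TPM in trex and to between 287 and 375 TPM in wt. Of the 10 markers, 3 were called as higher, the keratin genes Krt8, Krt18 and Krt19, and 7 were not called.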
